A study of Arabidopsis thaliana with 12 samples.

Results

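Transcript levels in gibberellin receptor mutant seedlings were set against those in gibberellin-deficient seedlings, with the same hormone given to both. The 3 gid1 GA3 arrays and the 3 ga-1 GA3 arrays were chosen by their sample titles and make up 6 of the 12 arrays of the series. The gid1 seedlings carry gid1a-1, gid1b-1 and gid1c-2, mutant alleles of the whole family of GID1 receptor genes. The ga-1 seedlings carry SALK_109115, a mutation that impairs gibberellin (GA) biosynthesis. Both groups were light-grown for 7 days on growth medium and then treated for 1 h with the gibberellin GA3 at 100 µM. The remaining arrays, 3 of gid1 mock and 3 of ga-1 mock, entered through the spread between replicates and as the levels without hormone. The design text calls the arrays of a group independent biological replicates. Each mutant is 1 line, and no wild type was analysed here. The measurement was the MAS5 signal of Affymetrix ATH1 arrays, a brightness on a linear scale that allows a probe set to be compared between arrays but not with another probe set.

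Gibberellin binds the soluble receptor GID1, and the complex then binds the DELLA proteins, nuclear repressors of growth. The F-box protein SLY1 marks DELLA proteins bound in this way for degradation. DELLA proteins accumulate when GA is scarce and raise a set of genes, several of which serve GA perception and synthesis and so form a feedback loop. In ga-1 the receptors are intact and the applied hormone can be perceived, whereas gid1 lacks working receptors, so the hormone is present in both groups and perceived in 1 of them.

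Array quality was described in the groups by several measures. Array medians ran from 169.7 to 188.8 over the 12 arrays. Correlations of log2 signals over the probe sets tested were 0.955 to 0.971 within the compared groups and 0.943 to 0.973 between them. The median SD over probe sets was 0.20 in gid1 GA3 and 0.21 in ga-1 GA3 on the log2 scale (n = 3 each). The log2 difference between 3′ and 5′ actin control signals, a sign of RNA quality, was 2.11 ± 0.47 in gid1 GA3 and 2.50 ± 0.38 in ga-1 GA3 (SD, n = 3 each, exact permutation p = 0.4, two-sided), and those of GAPDH and ubiquitin gave p = 1.0 and p = 0.7 by the same exact permutation test. No p under 0.1 can arise from 3 against 3 arrays, so a difference could not be shown. The abundant markers of green tissue and root were measured in both groups. RCA, which encodes Rubisco activase, averaged 22154 ± 442 in gid1 GA3 and 24078 ± 3619 in ga-1 GA3, and PYK10, a root beta-glucosidase gene, averaged 11635 ± 2336 in gid1 GA3 and 13986 ± 64.2 in ga-1 GA3 (SD, n = 3 each). Neither was called by the test used below (limma adjusted p = 0.80 for RCA and adjusted p = 0.41 for PYK10). The PYK10 arrays did not overlap, however, and its unadjusted limma p was 0.035, and the part of this root marker in the other differences was not tested.

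The mutated receptor genes were examined first, as a check of the labels. GID1A (AT3G05120) had signals of 55.5, 60.9 and 64.0 in gid1 GA3, against 209, 194 and 235 in ga-1 GA3. Every gid1 GA3 array thus lay below every ga-1 GA3 array, a 3.53-fold difference (log2 difference -1.82 ± 0.22 SE, limma adjusted p = 2.1e-04). The gap was smaller than without hormone, where GID1A averaged 60.7 ± 15.9 in gid1 mock and 679 ± 35.9 in ga-1 mock (SD, n = 3 each), and the change in the gap was itself called (difference of differences 1.70 ± 0.31 SE, adjusted p = 0.029).

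GID1B (AT3G63010) did not separate the hormone-treated groups. Its signals were 112, 93.1 and 78.3 in gid1 GA3, against 87.6, 73.3 and 79.0 in ga-1 GA3, with overlapping arrays (log2 difference 0.23, 95% interval -0.27 to 0.73, limma adjusted p = 0.80). In the mock groups the gene stood at 62.9 ± 13.8 in gid1 and at 514 ± 48.9 in ga-1 (SD, n = 3 each). A GID1B difference like the one that marks the mutant in mock arrays was therefore not seen with GA3, and the difference of differences was 3.28 ± 0.33 (SE, adjusted p = 1.2e-04). From mock to GA3 the log2 change of GID1B was -2.68 in ga-1 (limma adjusted p = 9.8e-06) and 0.60 in gid1 (adjusted p = 0.94). GID1C (AT5G27320) had 140.2, 117 and 185 in gid1 GA3, against 78.4, 115 and 91 in ga-1 GA3 (log2 difference 0.63, 95% interval 0.02 to 1.23, adjusted p = 0.44). Where the probes of these genes lie relative to the mutations was not examined.

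Of 15922 probe sets tested, limma called 201 between gid1 GA3 and ga-1 GA3 at an adjusted p under 0.05, which is 1.26% of those tested. In gid1 GA3, 145 were higher (0.911%) and 56 were lower (0.352%), so higher calls made up 72.1% of the total. A change of at least 2-fold was measured for 80 of the 145 (0.502% of those tested) and 29 of the 56 (0.182%). The median log2 difference was 1.03 among the higher and -1.01 among the lower, and -0.01 over all probe sets tested. Only 66 of the higher and 23 of the lower probe sets could be paired with a single gene. In whole seedlings, fewer cells of a type and less RNA per cell cannot be told apart. The count was 125 without gid1 GA3 replicate 2, 120 in a fit of the compared groups alone, 110 if limma's intensity trend was dropped and 30 with the level of seed markers as a covariate, as described with those markers below.

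**Figure D1:**
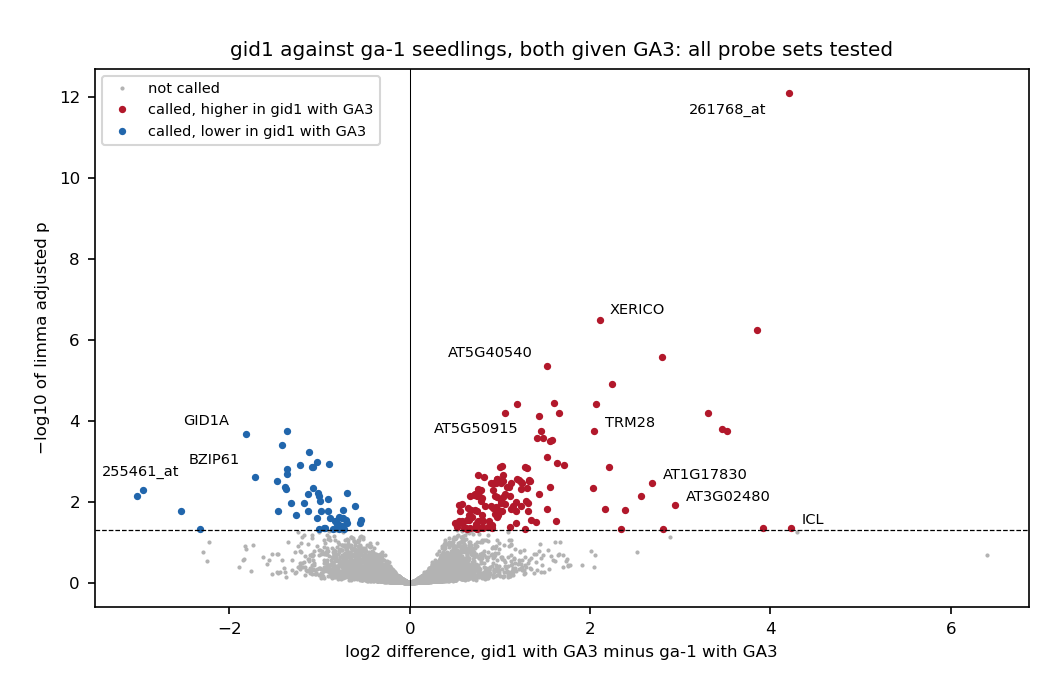
Each point is 1 of the 15922 probe sets tested, with the log2 difference (gid1 with GA3 minus ga-1 with GA3) on the x axis and −log10 of the limma adjusted p on the y axis. The dashed line marks an adjusted p of 0.05. Above it lie 145 probe sets on the higher side and 56 on the lower side, and XERICO has the smallest adjusted p among named genes.

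Of the 145 higher probe sets, 5 belonged to the lists of GA signalling genes and of genes that DELLA proteins raise. XERICO (AT2G04240), a RING-type gene linked to abscisic acid levels and raised by DELLA proteins, had signals of 2015, 1818 and 1716 in gid1 GA3, against 528, 342 and 438 in ga-1 GA3. All gid1 GA3 arrays lay far above the ga-1 GA3 arrays, a 4.30-fold difference (95% interval of the log2 difference 1.81 to 2.40, limma adjusted p = 3.4e-07). Without hormone the mutants stood together, at 2085 ± 154 in gid1 mock and 1943 ± 56.9 in ga-1 mock (SD, n = 3 each). The call was kept in each of the 22 alternatives run for XERICO.

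AT5G50915, which encodes the transcription factor bHLH137, had 1699.5, 2040.5 and 2247 in gid1 GA3, against 640.4, 848 and 669 in ga-1 GA3 (log2 difference 1.47 ± 0.18 SE, adjusted p = 2.6e-04). The lowest gid1 GA3 array was above the highest ga-1 GA3 array, while the mock groups averaged 1466 ± 442 in gid1 and 1227 ± 12.1 in ga-1 (SD, n = 3 each). IQD22, a calmodulin-binding IQ-domain gene, had 617, 688 and 618 in gid1 GA3, against 250, 179 and 198 in ga-1 GA3 (log2 difference 1.63 ± 0.23 SE, adjusted p = 0.0011). AT2G31730, a further basic helix-loop-helix (bHLH) gene, had 781, 772 and 949.9 in gid1 GA3, against 592, 518 and 399 in ga-1 GA3. Its log2 difference was smaller, 0.74 ± 0.18 (SE, adjusted p = 0.048), part of it was measured in mock arrays too (0.49, adjusted p = 0.99), and the call was lost in 16 of 22 alternatives.

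SLY1 (AT4G24210) had signals of 1059, 855 and 806 in gid1 GA3, against 488, 348 and 418 in ga-1 GA3, so the groups did not overlap (log2 difference 1.12 ± 0.18 SE, limma adjusted p = 0.0034). Apart from GID1A, described above, the other tested genes of GA signalling were not called. SPY, an O-fucosyltransferase that acts on DELLA proteins, averaged 463 ± 66.4 in gid1 GA3 and 462 ± 69.3 in ga-1 GA3 (SD, n = 3 each, 95% interval of the log2 difference -0.36 to 0.37). Its relative SEC had a log2 difference of 0.14 (adjusted p = 0.76), and SLY2, an F-box gene related to SLY1, had 0.36 (adjusted p = 0.73).

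As lists, 7 of the 12 listed for GA perception and signalling entered the test, with 1 called higher (SLY1) and 1 called lower (GID1A), and a median log2 difference of 0.23. Of the 13 listed as DELLA-raised, 6 entered the test, 4 were called higher (XERICO, IQD22, AT5G50915 and AT2G31730) and GID1A was called lower, with a median of 1.11. Over all probe sets tested the median was -0.01, 0.911% were called higher and 0.352% lower. Both lists hold GID1A and GID1B, which are mutated in gid1. They were chosen with earlier results of these data known, so the counts and medians are descriptions and not independent support. None of the 14 GA biosynthesis genes and none of the 11 GA inactivation genes listed was paired with a probe set in the names table, so these lists were not analysed here.

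**Figure D2:**
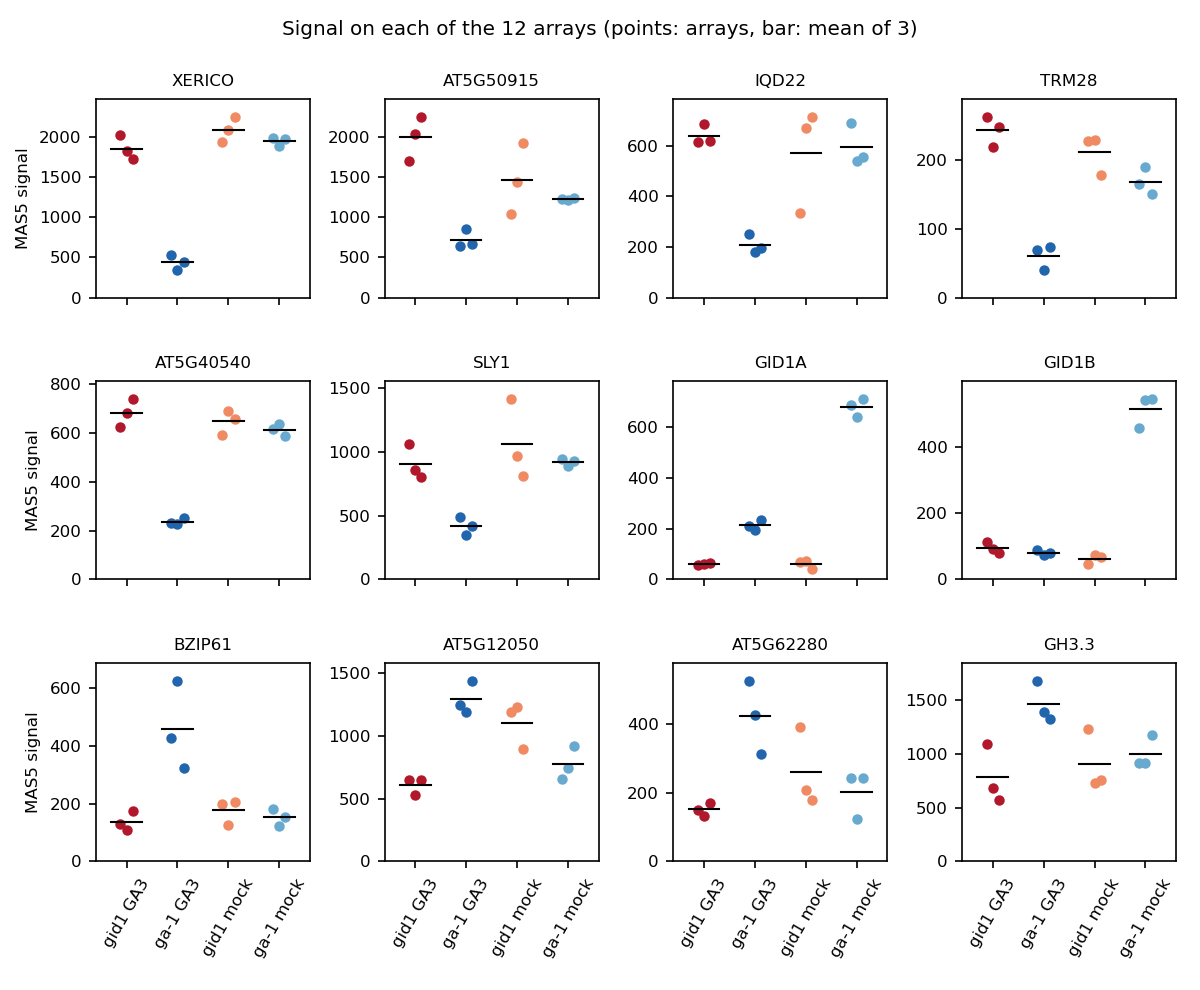
MAS5 signal (linear y axes from 0) of 12 genes on every array, by group, with points for arrays and a bar for the mean of 3. XERICO, AT5G50915, IQD22, TRM28, AT5G40540 and SLY1 are lower in ga-1 GA3 than in gid1 GA3, while BZIP61, AT5G12050, AT5G62280 and GH3.3 are higher in ga-1 GA3. GID1A is low in both gid1 groups, and GID1B is low in every group but ga-1 mock.

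Beyond those lists, the largest named differences on the higher side were in genes of varied or unknown function. The protein kinase gene AT5G40540 had 623, 683 and 739 in gid1 GA3, against 229, 228 and 252 in ga-1 GA3. Its replicates were tight in both groups, and the log2 difference of 1.53 ± 0.13 (SE) had the second smallest adjusted p among named genes (4.4e-06). TRM28, of the TON1 recruiting motif family of microtubule-linked proteins, had 263, 218 and 248 in gid1 GA3, against 69.5, 39.8 and 72.9 in ga-1 GA3 (4.13-fold, log2 difference 2.05 ± 0.24 SE, adjusted p = 1.8e-04). Both calls were kept in every alternative run for them.

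AT1G17830 had 268, 234 and 312 in gid1 GA3, against 68.3, 14.8 and 72.3 in ga-1 GA3 (log2 difference 2.69 ± 0.44 SE, adjusted p = 0.0035). AT4G16447 had 715, 686 and 578 in gid1 GA3, against 158, 69.6 and 258 in ga-1 GA3 (log2 difference 2.21 ± 0.32 SE, adjusted p = 0.0014). For both genes replicate 2 of ga-1 GA3 was the lowest array, and the groups did not overlap. AT1G29270 (1.62), AT1G79630 (1.56) and AT1G21060 (1.52) completed the largest log2 differences outside the seed markers, with adjusted p = 0.030, adjusted p = 0.0043 and adjusted p = 0.015. The call was lost in 7 of 22 alternatives for AT1G29270 and in 5 of 22 for AT1G21060.

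Some further called genes were picked after their values were seen, because their products have known roles. ATMYC1, a bHLH gene related to regulators of epidermal cell fate, had 400, 392 and 364 in gid1 GA3, against 186, 211 and 180.5 in ga-1 GA3 (log2 difference 1.00 ± 0.14 SE, adjusted p = 0.0014). LHW, a bHLH gene of root vascular development, had 504, 648 and 693 in gid1 GA3, against 314, 276 and 349.9 in ga-1 GA3 (log2 difference 0.97 ± 0.15 SE, adjusted p = 0.0029). In both genes the gid1 GA3 arrays lay wholly above. ATMAP65-6, a gene of the MAP65 family of microtubule-associated proteins, averaged 901 ± 183 in gid1 GA3 and 514 ± 94.4 in ga-1 GA3 (SD, n = 3 each, adjusted p = 0.046).

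UDP-glycosyltransferases attach sugars to hormones and secondary metabolites, and this family was also looked at after its values were seen. Of 31 probe sets tested with such a symbol, 4 were called higher in gid1 GA3 and 0 lower, against 0.911% and 0.352% of all probe sets tested. UGT76E11 had 318, 293 and 364 in gid1 GA3, against 109, 122 and 124 in ga-1 GA3 (log2 difference 1.46 ± 0.17 SE, limma adjusted p = 1.8e-04). GT72B1 (log2 difference 1.08), UGT76C2 (0.75), a cytokinin glucosyltransferase, and UGT74D1 (0.73) were the other called members. The family's median log2 difference was 0.16, and the lowest value was -0.37, so most members were not called.

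Probe sets without a single gene name held the largest difference called with tight replicates. Probe set 261768_at had 3038, 3748 and 3559.9 in gid1 GA3, against 182, 180.1 and 197 in ga-1 GA3, an 18.4-fold difference (log2 difference 4.21 ± 0.12 SE, adjusted p = 8.4e-13). Its mock levels were 3948 ± 481 in gid1 and 3591 ± 186 in ga-1 (SD, n = 3 each), so the ga-1 GA3 group alone was low. Probe set 253904_at had a like log2 difference, 3.91, but with 141, 1455 and 662 in gid1 GA3, against 23.3, 14.5 and 118 in ga-1 GA3, so both groups varied widely. Its call (adjusted p = 0.045) was lost in 15 of 21 alternatives.

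Among genes lower in gid1 GA3, transcription factor genes stood beside genes of unknown function. BZIP61 (AT3G58120), a basic leucine zipper gene, had 131, 107 and 176 in gid1 GA3, against 428, 626 and 325 in ga-1 GA3. The groups were well apart although ga-1 GA3 varied widely, and the difference was 3.28-fold (log2 difference -1.71 ± 0.27 SE, limma adjusted p = 0.0024). The mock groups averaged 178 ± 43.7 in gid1 and 153 ± 30.1 in ga-1 (SD, n = 3 each). AT3G57800, a bHLH gene, had 279, 208 and 215 in gid1 GA3, against 515, 509 and 444 in ga-1 GA3 (log2 difference -1.07 ± 0.16 SE, adjusted p = 0.0014). AT3G57600, of the AP2/ERF family, had 121, 94.0 and 102 in gid1 GA3, against 166, 264 and 228 in ga-1 GA3 (log2 difference -1.03 ± 0.22 SE, adjusted p = 0.025), a call lost in 7 of 21 alternatives. Part of the AT3G57600 difference was measured in mock arrays too, where the mutants did not overlap (log2 difference -0.43, limma adjusted p = 0.99). Its difference of differences was not called (-0.60, adjusted p = 0.78).

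AT5G12050 had group means in opposite order with and without hormone, but the mock arrays overlapped and the mock difference was not called. It had 650.3, 532 and 651 in gid1 GA3, against 1246, 1186 and 1437 in ga-1 GA3 (log2 difference -1.08 ± 0.16 SE, adjusted p = 0.0014). In mock arrays it averaged 1102 ± 182 in gid1 and 774 ± 135 in ga-1 (SD, n = 3 each, adjusted p = 0.99). The difference of differences was -1.59 ± 0.22 (SE, adjusted p = 0.0032).

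AT1G23390, a Kelch-repeat F-box gene, had 1013, 1256 and 1182 in gid1 GA3, against 3019, 2558 and 1822 in ga-1 GA3 (log2 difference -1.07 ± 0.18 SE, adjusted p = 0.0046). AT5G62280 had 149.6, 132 and 171 in gid1 GA3, against 526, 427 and 314 in ga-1 GA3 (log2 difference -1.46 ± 0.30 SE, adjusted p = 0.017). Neither pair of groups overlapped. AT3G14560 (-1.26), AT5G65300 (-1.13) and AT1G78170 (-1.01) were lower too, with adjusted p = 0.022, adjusted p = 0.0066 and adjusted p = 0.0070. The call was lost in 6 of 22 alternatives for AT5G62280 and in 6 of 21 for AT3G14560. Part of the AT1G23390 difference was measured in mock arrays too, which overlapped (log2 difference -0.43, limma adjusted p = 0.99). Its difference of differences was not called (-0.64, adjusted p = 0.63). AT4G33130, which was also called, had signals of 5.70, 24.6 and 35.6 in gid1 GA3, against 104, 94.6 and 64.7 in ga-1 GA3. It passed the filter on low signals only through ga-1 GA3, where it is high, so its values are given as levels.

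The same holds for the unnamed probe set 263953_at, with 24.5, 13.1 and 20.9 in gid1 GA3, against 151, 224 and 107 in ga-1 GA3. Of the 201 called probe sets, 3 passed the filter only in this way, and the remaining one, LEA4-5, is among the seed markers below.

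Cell wall genes were called in both directions. CSLA03, a cellulose synthase-like gene of mannan synthesis, had 328, 272 and 351 in gid1 GA3, against 692, 737 and 500 in ga-1 GA3 (log2 difference -1.01 ± 0.24 SE, adjusted p = 0.048, lost in 11 of 22 alternatives). The pectate lyase-like genes AT3G07010 and AT5G48900 were lower in gid1 GA3 by log2 differences of -0.94 and -0.76, each with an adjusted p of 0.044. The pectin esterase gene AT5G19730 was higher, at 287 ± 32.1 in gid1 GA3 and 135 ± 25.9 in ga-1 GA3 (SD, n = 3 each, adjusted p = 0.0044), and so was EXGT-A3, a xyloglucan endotransglucosylase gene, by a log2 difference of 0.59 (adjusted p = 0.032). These pectin genes and EXGT-A3 were picked after their values were seen.

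The lists of growth genes gave 1 call. Over all probe sets tested 1.26% were called in either direction, and at that share a list this short would seldom hold a call. None of 10 tested expansins, which loosen cell walls, was called, with log2 differences from -0.64 (EXPA15) to 0.52 (EXPB2) and a median of -0.07. None of 6 tested genes of the xyloglucan (XTH) list was called, with differences from -0.66 to 0.46, and none of 3 tested GASA peptide genes, a family of small peptides often responsive to GA. The xyloglucan endotransglucosylase gene EXGT-A3, called higher above, was not on the XTH list, so the list does not stand for the whole family. At an unadjusted limma p under 0.05 there were 2 expansins, 3 XTH genes and 0 GASA genes, against 10.8% of all probe sets tested. Of 3 tested auxin early-response genes, 1 was called lower in gid1 GA3, all 3 had an unadjusted limma p under 0.05, and the median log2 difference was -0.90. The called gene was GH3.3, which encodes an auxin-conjugating enzyme, at 1088, 686 and 568 in gid1 GA3, against 1678, 1391 and 1323 in ga-1 GA3 (log2 difference -0.96 ± 0.22 SE, adjusted p = 0.045, lost in 13 of 22 alternatives). IAA29, an auxin-response repressor gene, averaged 167 ± 18.0 in gid1 GA3 and 315 ± 75.1 in ga-1 GA3 (SD, n = 3 each, adjusted p = 0.075), and the log2 difference of WES1 was -0.28 (adjusted p = 0.46).

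Of the stomatal lineage genes, SPCH, the factor that starts the lineage, averaged 189 ± 48.9 in gid1 GA3 and 120.4 ± 19.9 in ga-1 GA3 (SD, n = 3 each, adjusted p = 0.28), and none of the 3 tested was called (1 at an unadjusted p under 0.05). The growth and shade, abscisic acid response, touch, clock and cell cycle lists had 1 tested gene each, and none was called or had an unadjusted p under 0.05. Over all probe sets tested, 1.26% were called and 10.8% had an unadjusted limma p under 0.05. No gene of the brassinosteroid or jasmonate lists was paired with a probe set.

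**Figure D3:**
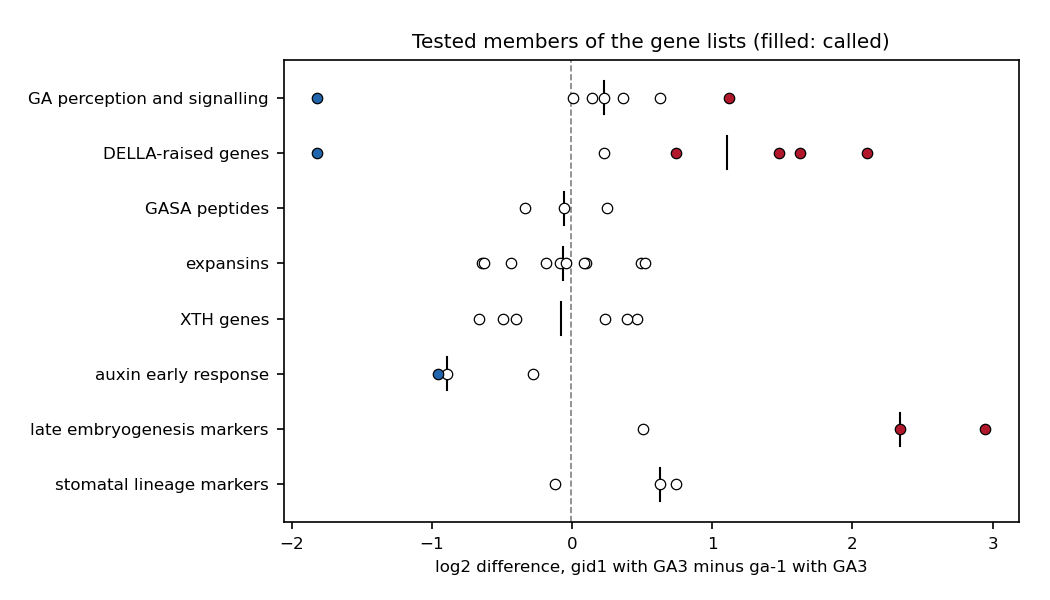
Log2 difference (gid1 with GA3 minus ga-1 with GA3, x axis) of each gene that entered the test, for the 8 lists that have 3 or more of them. The lists were chosen with earlier results of these data known. Red circles were called higher, blue circles called lower and open circles not called, short vertical bars are list medians and the dashed line is the median over all probe sets tested. The list of genes raised by DELLA proteins has a median of 1.11 with GID1A far to the left, the late embryogenesis list includes LEA4-5, which passed the filter only through gid1 GA3, and the expansin and XTH lists centre near 0.

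The mock arrays, which share no array with the hormone-treated groups, show how much of these differences was there without GA3. Only 3 of 15922 probe sets (0.0188%) were called between gid1 mock and ga-1 mock, all of them lower in gid1. Without adjustment, 729 (4.58%) had a limma p under 0.05, against 10.8% between gid1 GA3 and ga-1 GA3. Of the 3 called, 2 (66.7%) were also among the 201 called with GA3 (0.995%), namely GID1A and the unnamed probe set 255461_at. Probe set 255461_at had 49.3, 22.4 and 36.0 in gid1 GA3, against 234, 248 and 322 in ga-1 GA3, and averaged 28.7 ± 25.3 in gid1 mock and 257 ± 65.9 in ga-1 mock (SD, n = 3 each). It thus followed the mutant and not the hormone, with log2 differences of -2.96 with GA3 and -3.54 in mock.

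For the other called probe sets the mock difference was mostly small. The 145 higher with GA3 had a median log2 difference of 0.04 between the mock groups, where 58.6% were positive, against 47.8% of all probe sets tested. The 56 lower with GA3 had a median of -0.08 in mock, where 67.9% were negative, against 52.2% of all tested. The mock difference was over 50% of the GA3 difference, in the same direction, for 4 of the 145 and 8 of the 56. In median signal, the 145 stood at 598 in gid1 GA3 and 262 in ga-1 GA3, and at 516 in gid1 mock and 533 in ga-1 mock. The 56 stood at 328 in gid1 GA3 and 649 in ga-1 GA3, and at 408 in gid1 mock and 439 in ga-1 mock.

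**Figure D4:**
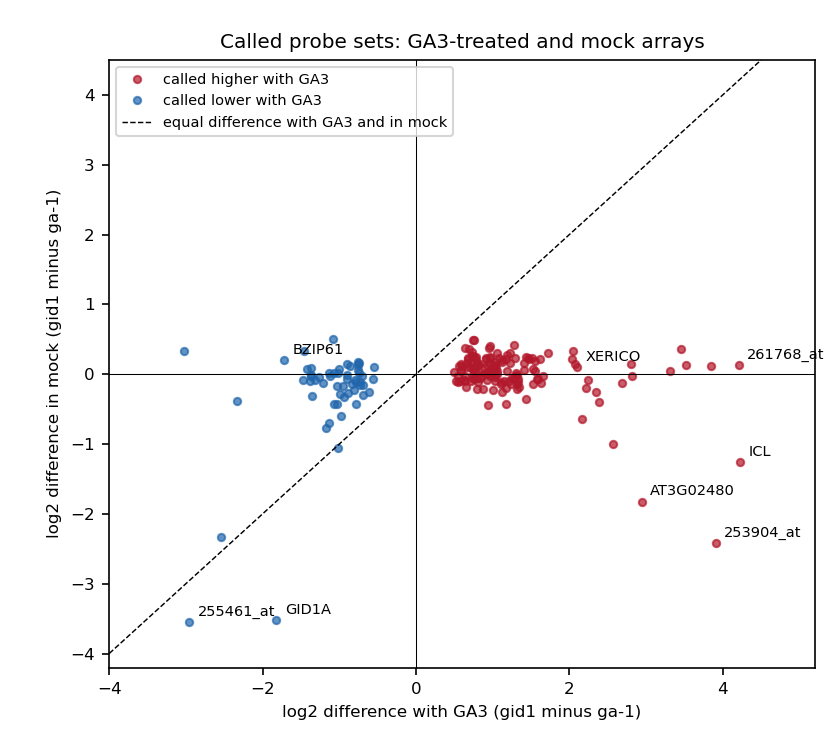
Each of the 201 called probe sets is placed by its log2 difference between gid1 and ga-1 with GA3 (x axis) and in mock (y axis). Most points lie near 0 on the y axis, GID1A and 255461_at lie far below it on the left, and ICL, AT3G02480 and 253904_at are positive with GA3 and negative in mock.

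Whether the mutant difference with GA3 differed from that in mock was tested by the difference of differences. Limma called 35 of 15922 probe sets (0.22%), 30 positive (0.188%) and 5 negative (0.0314%). Leaving out ga-1 GA3 replicate 1 gave 21 calls and leaving out its replicate 3 gave 65. The count fell to 19 and 20 when gid1 GA3 replicate 2 or 3 was dropped, to 20 when gid1 mock replicate 1 was, and to 17 and 22 when ga-1 mock replicate 2 or 3 was. It was 12 if no intensity trend was used and 9 under the covariate of seed markers. Besides GID1A, GID1B and AT5G12050, the named genes were XERICO (2.01 ± 0.20 SE, adjusted p = 1.2e-04), AT5G40540 (1.45 ± 0.18 SE, adjusted p = 8.8e-04), AT3G02480 (4.77 ± 0.80 SE, adjusted p = 0.018) and, with an adjusted p between 0.030 and 0.047, IQD22 (1.75), AT4G16447 (2.42), TRM28 (1.72), UGT76E11 (1.23) and BZIP61 (-1.91). SLY1 (0.95, adjusted p = 0.24) and AT5G50915 (1.26, adjusted p = 0.053) were not called by this test. AT3G02480 was unlike XERICO and AT5G40540 in the group that changed. Its log2 change from mock to GA3 was 3.52 in gid1 (limma adjusted p = 0.18) and -1.25 in ga-1 (adjusted p = 0.62). These changes were -0.17 and -2.18 for XERICO, and 0.07 and -1.38 for AT5G40540. In mock, AT3G02480 had 155.6, 89.0 and 280.7 in gid1, against 187.5, 1714.4 and 537.6 in ga-1.

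Some markers of seeds and embryos were higher in gid1 GA3. AT3G02480, of the late embryogenesis abundant (LEA) proteins that protect drying seeds, had 1059, 3039.7 and 1810.1 in gid1 GA3, against 258, 230.3 and 214 in ga-1 GA3 (log2 difference 2.95 ± 0.57 SE, limma adjusted p = 0.012). ICL, which encodes the isocitrate lyase of seed oil use, had 254, 644 and 752 in gid1 GA3, against 35.6, 7.60 and 69.5 in ga-1 GA3 (log2 difference 4.23 ± 0.99 SE, adjusted p = 0.045, lost in 13 of 21 alternatives). LEA4-5 had 80.0, 197 and 199 in gid1 GA3, against 48.1, 15.4 and 32.6 in ga-1 GA3, and it passed the filter on low signals only through gid1 GA3, where it is high. In all of these genes the groups did not overlap, and replicate 1 was the lowest of the gid1 GA3 arrays.

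Of 15 seed, LEA and reserve genes with a probe set, 12 had a higher mean log2 signal in gid1 GA3 than in ga-1 GA3. In 6 of them the gid1 GA3 arrays lay wholly above. Among all probe sets tested, 6.98% lay wholly above, but that share is not drawn from a like set. LEA18 and AT3G15670, among the 6, were not tested, and LEA4-5 passed the filter only through gid1 GA3. Only 6 of the 15 passed the filter on low signals, so the rest are given as levels. AT4G36700, AT2G18540 and M10 had lower means in gid1 GA3. LEA18 had 80.1, 175 and 156 in gid1 GA3, against 5.80, 9.80 and 4.00 in ga-1 GA3, and AT3G15670, another LEA gene, had 122, 217 and 154 in gid1 GA3, against 3.90, 9.90 and 2.30 in ga-1 GA3. Both were near the bottom of the scale in ga-1 GA3. PAP85, a seed storage protein gene, had 112, 245 and 303 in gid1 GA3, against 38.3, 69.2 and 111 in ga-1 GA3 (adjusted p = 0.30). The markers M10, AT1G03890 and AT5G44310 were near the bottom in both groups, with signals of 2.20 to 16.0, 2.90 to 16.6 and 13 to 35.6 in gid1 GA3.

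The summed signal of the 15 genes ran from 2162 to 5176 in gid1 GA3 and from 696 to 884 in ga-1 GA3. It also ran from 442 to 803 in gid1 mock and from 538 to 3369 in ga-1 mock, so 1 ga-1 mock array was within the gid1 GA3 range without hormone. The mean log2 signal of these genes was then used as a covariate. It ran from 5.61 to 6.68 in gid1 GA3 and from 4.27 to 4.74 in ga-1 GA3. These ranges do not overlap, so this fit cannot separate the marker level from the group. In it, the 201 called probe sets kept their sign in 201 of 201. The median log2 difference of the 145 was then 0.94 and that of the 56 was -1.01. The median SE over all probe sets tested was 0.28, against 0.18 without the covariate, and 30 probe sets were called, 27 of them among the 201. XERICO, IQD22, TRM28, AT5G40540, AT1G78170 and 261768_at kept their calls in this fit. ICL, LEA4-5 and AT3G02480 are part of the covariate, which lowers their own differences by construction, so their values in this fit are not used. The part of these markers in the other differences was not tested, as this fit cannot decide it.

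**Figure D5:**
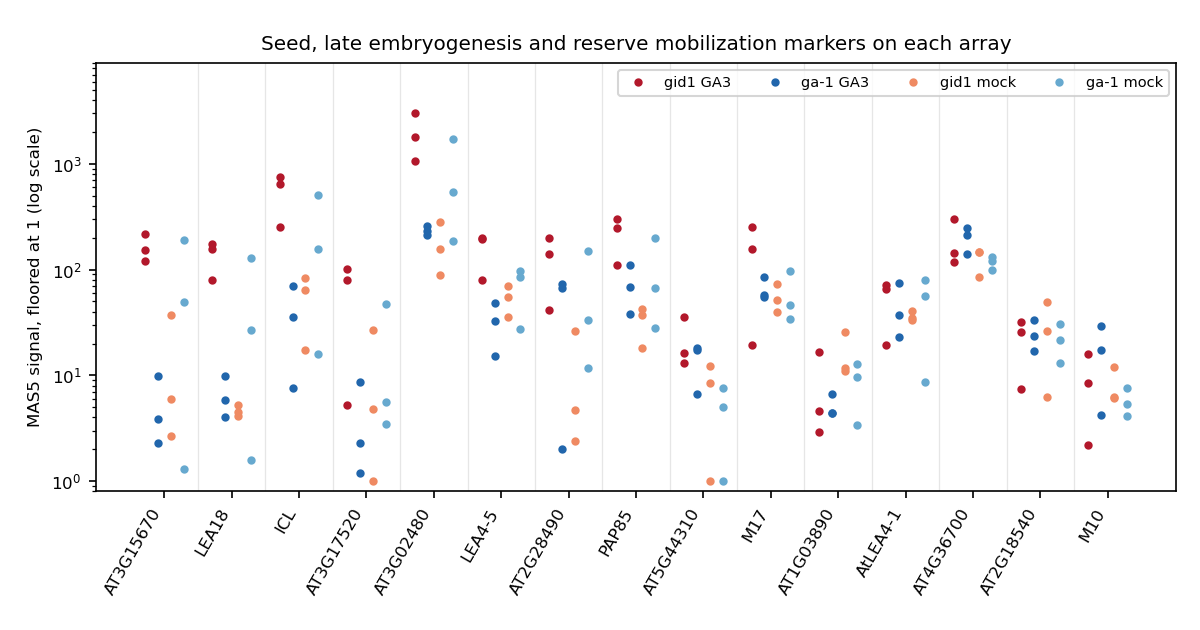
MAS5 signal (log y axis, floored at 1) of the 15 seed, late embryogenesis and reserve mobilization markers on all 12 arrays, ordered by their difference between gid1 GA3 and ga-1 GA3. The markers on the left are higher in gid1 GA3 than in ga-1 GA3, and for LEA18 and AT3G15670 every ga-1 GA3 array is at 9.90 or less. Those on the right overlap between the groups.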

How the data were processed

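ATH1 arrays of 12 seedling samples were analysed, in 4 groups of 3 taken from the sample titles. A free-text field names GA3 for the mock samples as well, and the titles were followed. Each deposited value is a linear intensity, and the submitters' processing notes name MAS5 as its software, without a version. No scanner files or detection calls were used here.

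Signals were floored at 1 and taken to log2. The 64 control probe sets and probe sets with a mean log2 signal under the 30th percentile (5.55) were left out, leaving 15922 of 22746. limma 3.58.1 in R 4.3.3 estimated the 4 group means from the 12 arrays in 1 model, its eBayes step used a trend on intensity, and p-values were adjusted by Benjamini-Hochberg over all probe sets tested (threshold 0.05). The same fit was also run on simulated arrays in which each probe set varied independently. Variation shared between probe sets, such as that of the seed markers, was not simulated. Exact permutation tests used scipy 1.17.1. Of the 22810 probe sets, 13513 had 1 gene symbol in the platform annotation, 503 had several and 8794 were not listed, and 13436 were matched to TAIR10.1 by gene ID.

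The members and gene lists were chosen with earlier results of these data known. Named genes are the 12 largest called differences each way without overlap of arrays, the 2 largest unnamed each way, up to 4 called members of each list (every tested member for the lists of GA and DELLA genes), the GID1 genes, and the 6 largest named calls each way of the other tests. Alternatives were another scaling, filter or transformation, a fit with no trend, array weights, only the compared groups, a replicate block, each array left out, stricter thresholds and a seed-marker covariate. Promoter motifs, which had been planned, were not analysed here.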

Additional observations from a re-analysis of the deposited data

Results flagged for a closer look

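The mutant difference with GA3 minus that in mock tests whether the groups differ under the same contrast, and limma called it for 11 named genes. On the log2 scale the negative values were BZIP61 at -1.91 and AT5G12050 at -1.59. The positive ones, from the smallest, were UGT76E11 at 1.23, AT5G40540 at 1.45, GID1A at 1.70, TRM28 at 1.72, IQD22 at 1.75, XERICO at 2.01, AT4G16447 at 2.42, GID1B at 3.28 and AT3G02480 at 4.77. For GID1A and GID1B the positive value came with a negative difference in mock (-3.52 and -3.05), and for AT3G02480 the mock difference was -1.82.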

How the results depend on the processing

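The 201 calls between gid1 GA3 and ga-1 GA3 became 110 without the intensity trend, 120 with the compared groups alone, 30 with the seed-marker covariate, 99 at an adjusted p under 0.01 and 109 at 2-fold or more, and ran from 125 to 290 as each array was left out. Under the other scalings, filters, transformation and array weights they were 170 to 208. The 35 calls of the difference of differences became 12 without the trend, 9 with the covariate and 15 at an adjusted p under 0.01, and ran from 17 to 65 over arrays left out. The 3 mock calls became 0 under the stricter filter, which left those probe sets untested, and ran from 2 to 5 over arrays left out. Leaving out mock arrays for the hormone-treated comparison, and hormone-treated arrays for the mock one, was chosen after seeing the data. With the replicate number as a block the counts were 178, 30 and 2. Deviations of same-numbered arrays of gid1 GA3 and ga-1 GA3 correlated at -0.11 to -0.01, and 0 of 3 correlated best with their own number. No pairing by number was seen, but 3 arrays a group cannot show that same-numbered arrays share nothing else. None of the 32 called named probe sets changed sign under any alternative run for it, while SPY, not called and near 0, ran from -0.11 to 0.12. Of 32 named probe sets that were called, 6 kept the call in every alternative run for them (XERICO, IQD22, TRM28, AT5G40540, AT1G78170 and 261768_at), and 26 lost it with the covariate, which contains AT3G02480, ICL and LEA4-5. The 5 that were not called stayed so. The cause of these changes was not tested, beyond the larger SE under the covariate. With 3 arrays a group, the number of arrays limits the precision, and signals near the bottom of the scale limit the low seed markers.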
